A study of Homo sapiens with 12 samples.

Results

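Interferon-stimulated genes are the genes that cells switch on when they sense interferon. The RNA of 54 of them was followed in oesophageal squamous cell carcinoma cells in which CDCA7, a zinc-finger protein bound to chromatin, was raised or lowered. They were chosen by gene symbol, with earlier results of these data known. Each of the 54 symbols matched 1 of the 58735 genes in the deposited table. Bulk RNA sequencing gave 12 libraries from KYSE180 and KYSE150, established human cell lines, in a series that asks what CDCA7 does in the epithelial-mesenchymal transition driven by TGF-β. In KYSE180, 3 libraries were native controls of wild-type genotype and 3 came from cells with CDCA7 overexpression. In KYSE150, 3 were native controls of wild-type genotype and 3 carried shCDCA7, a short hairpin RNA against CDCA7. All cells were kept in RPMI-1640 with fetal bovine serum and antibiotics, and the labels name no interferon, virus or growth factor added to any group. The labels do not say whether the native controls carried a vector or a control hairpin, which clones were used, or whether the libraries of a group came from separate cultures. The p-values therefore measure only the spread between these libraries, which may be technical.

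Type I interferons signal through a receptor made of IFNAR1 and IFNAR2, and type III interferons (interferon lambda) through IFNLR1 and IL10RB, the receptor pair typical of epithelia. Both receptors act through the kinases JAK1 and TYK2 on STAT2, which joins IRF9 and binds the interferon-stimulated response element in the promoters of target genes. The products sense or destroy viral RNA (the IFIT and OAS families, EIF2AK2), block viruses at membranes (the MX, IFITM and BST2 proteins), attach or remove the ubiquitin-like protein ISG15 (HERC5, UBE2L6, USP18) or feed back on the signal itself (STAT2, IRF7, IRF9). Squamous epithelium makes and answers interferon lambda, and many carcinoma lines keep some of these genes on without any added interferon.

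The libraries held 16282281 to 19573805 reads assigned to genes, so that 1 read was worth 0.0511 to 0.0614 CPM, a read count scaled to the size of the library. Levels are FPKM, fragments scaled to the length of the gene and the authors' size for the library. CDCA7 itself measured 24.0, 18.2 and 17.4 FPKM in the KYSE180 controls, against 44.6, 59.1 and 57.9 FPKM with overexpression. In KYSE150 CDCA7 was at 27.4, 25.6 and 25.6 FPKM in the controls, against 9.24, 10.1 and 8.83 FPKM with shCDCA7, so CDCA7 followed the labels without overlap in both lines. In 2 libraries other genes stood apart from the rest of their group. KYSE180 control 2 had the basal keratin KRT14 at 1412 FPKM against 389 and 274 FPKM in controls 1 and 3, within reach of the 1301 to 1745 FPKM of the overexpressing cells. Library 2 of shCDCA7 had 11.2% of its reads on mitochondrial genes, against 5.20% and 5.73% in its partners. Squamous markers were high in every library, their FPKM summing to 2133 to 5112 in KYSE180 and 513 to 890 in KYSE150. Of the markers of leukocytes, plasmacytoid dendritic cells, fibroblasts and endothelium, 4 of 8, 3 of 4, 5 of 6 and 3 of 4 stayed under 1 FPKM in every library. LYZ of myeloid cells and LILRA4 of plasmacytoid dendritic cells had no read in any library. CD74, HLA-DRA, ITGAM and CD3E of the leukocyte list and IL3RA of the plasmacytoid list had enough reads to test in at least 1 comparison. In bulk RNA, fewer cells that express a gene and less of its RNA per cell cannot be told apart.

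The response element gives these genes a visible common feature that their choice by name did not use. In RefSeq's promoter windows on GRCh38.p14, of 250 bases before to 50 bases after a transcription start, 44 of the 54 genes were found. The letters searched were GAAA, any 2 bases, GAAA, on both strands, the core of the interferon-stimulated response element. They occurred in 28 of the 44 genes (63.6%), and in 1195 of 27305 genes with such a window (4.38%). The 250 bases before the start are printed 5′ to 3′ on the gene's strand for 6 genes that carry the letters and are described below, and for IFI16, which has no match in either of its windows; capitals mark the matching letters, which read TTTC, 2 bases, TTTC where they lie on the other strand.
IFIT1: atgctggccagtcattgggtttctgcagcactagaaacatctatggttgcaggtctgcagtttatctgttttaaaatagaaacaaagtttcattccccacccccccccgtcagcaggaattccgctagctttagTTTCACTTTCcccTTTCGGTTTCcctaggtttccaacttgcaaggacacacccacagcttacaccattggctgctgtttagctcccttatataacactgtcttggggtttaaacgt
IFIT3: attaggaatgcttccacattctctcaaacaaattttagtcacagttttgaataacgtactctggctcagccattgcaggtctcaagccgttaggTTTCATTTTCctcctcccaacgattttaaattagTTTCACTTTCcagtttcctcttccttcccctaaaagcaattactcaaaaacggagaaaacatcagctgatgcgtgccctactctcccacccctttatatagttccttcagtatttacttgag
IFI44: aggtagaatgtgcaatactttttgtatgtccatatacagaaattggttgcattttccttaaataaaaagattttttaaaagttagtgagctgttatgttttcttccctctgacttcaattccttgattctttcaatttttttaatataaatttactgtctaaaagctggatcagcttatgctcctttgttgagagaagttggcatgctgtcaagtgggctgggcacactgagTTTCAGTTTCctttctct
DDX60: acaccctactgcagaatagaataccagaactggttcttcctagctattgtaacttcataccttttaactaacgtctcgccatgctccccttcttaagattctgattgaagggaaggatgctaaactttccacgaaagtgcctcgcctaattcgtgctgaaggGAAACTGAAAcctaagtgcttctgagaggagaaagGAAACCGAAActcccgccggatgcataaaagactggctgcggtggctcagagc
ISG15: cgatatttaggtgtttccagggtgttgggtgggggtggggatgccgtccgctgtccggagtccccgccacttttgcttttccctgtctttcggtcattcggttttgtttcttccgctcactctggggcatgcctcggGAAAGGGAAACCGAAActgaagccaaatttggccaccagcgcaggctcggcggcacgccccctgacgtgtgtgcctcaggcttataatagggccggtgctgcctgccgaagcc
PARP9: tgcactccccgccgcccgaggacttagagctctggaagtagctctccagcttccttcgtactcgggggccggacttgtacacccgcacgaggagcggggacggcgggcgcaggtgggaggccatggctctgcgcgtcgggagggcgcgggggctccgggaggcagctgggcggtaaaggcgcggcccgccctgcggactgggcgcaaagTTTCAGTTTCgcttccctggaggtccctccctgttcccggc
IFI16: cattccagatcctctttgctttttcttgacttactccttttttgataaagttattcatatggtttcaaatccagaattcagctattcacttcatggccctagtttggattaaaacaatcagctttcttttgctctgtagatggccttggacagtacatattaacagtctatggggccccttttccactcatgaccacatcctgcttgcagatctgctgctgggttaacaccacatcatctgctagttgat
These stretches lie at chr10:89392373-89392622 (plus strand) for IFIT1, chr10:89327747-89327996 (plus) for IFIT3, chr1:78649539-78649788 (plus) for IFI44 and chr4:168318753-168319002 (minus) for DDX60. Those of ISG15, PARP9 and IFI16 lie at chr1:1013247-1013496 (plus), chr3:122564301-122564550 (minus) and chr1:159008741-159008990 (plus). In IFIT1 the matches begin 116 and 103 bases before the start, in IFIT3 156 and 122, and in DDX60 88 and 53. ISG15 has overlapping matches 113 and 107 bases before its start, whereas IFI44 and PARP9 have 1 each, 18 and 41 bases before theirs. By role, the letters were found in 3 of 3 PARP genes, 10 of 12 genes of the mixed group, 5 of 6 membrane genes, 7 of 9 RNA-binding genes, 3 of 7 ubiquitin genes and 0 of 7 nuclear regulators with a window. A second element, TTC, any 3 bases, GAA, the core that STAT dimers bind, occurred in 12 of the 44 genes (27.3%) and in 9.38% of all 27305. A match describes the letters in this window and is not a measured binding site. Other spacings of the GAAA pair were not searched, and IFI16 has such a pair with 1 base between in its other window.

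The resting level of these genes differed widely between the lines. Of 53 members tested between the native controls, 43 (81.1%) were higher in KYSE180, against 33.4% of 17088 genes tested, and 1 (1.89%) was lower, against 24.6%. The median log2 difference was 2.19 for the members and 0.07 for all genes tested, by limma with Benjamini-Hochberg adjustment. Of the 53, 11 had too few reads in all 3 KYSE150 controls. Of these, BST2 and OAS2 had enough reads in all 3 shCDCA7 libraries, which also counted in the filter of this 12-library fit. The rest of the 11 entered the test only through KYSE180, so their direction was fixed by the filter. Among the other 42 members 32 were higher (76.2%), against 26.8% of all genes with enough reads in at least 1 control of each line. IFI44, a cytoplasmic antiviral protein, stood at 117, 28.9 and 80.9 FPKM in KYSE180 and at 1.03, 0.959 and 1.08 FPKM in KYSE150. The lines did not overlap, and the difference was 5.03 on the log2(FPKM + 1) scale (SE 0.37, adjusted p = 4.5e-07, limma). BST2, or tetherin, which holds budding virus at the cell surface, was among the 11, at 588, 134 and 442 FPKM in KYSE180 and 0, 0.184 and 0.0894 FPKM in KYSE150. IRF7, which drives the later wave of interferon production, was the exception, at 0.332, 0.205 and 0.251 FPKM in KYSE180 and 0.925, 0.881 and 0.704 FPKM in KYSE150. It was lower in KYSE180 in every library, by a log2 difference of -0.54 (SE 0.20, adjusted p = 0.034, limma), although both levels are low. By role, and with those 11 included, all 13 RNA-binding genes tested were higher in KYSE180, as were 7 of 8 membrane genes, 8 of 9 ubiquitin genes, 10 of 11 in the mixed group, 3 of 4 PARP genes and 2 of 8 nuclear regulators. KYSE150 had no read of CMPK2, IFI44L, RTP4 or XAF1 in any of its 3 controls, where a count of 0 allows up to 3 reads per library. It was not poor in every member: IFITM3, an endosomal block to virus entry, reached 260.2, 292 and 272 FPKM there and was the most abundant member. IFITM3 shares near-identical sequence with IFITM1 and IFITM2, so reads may have been split among them and their levels are uncertain.

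**Figure D1:**
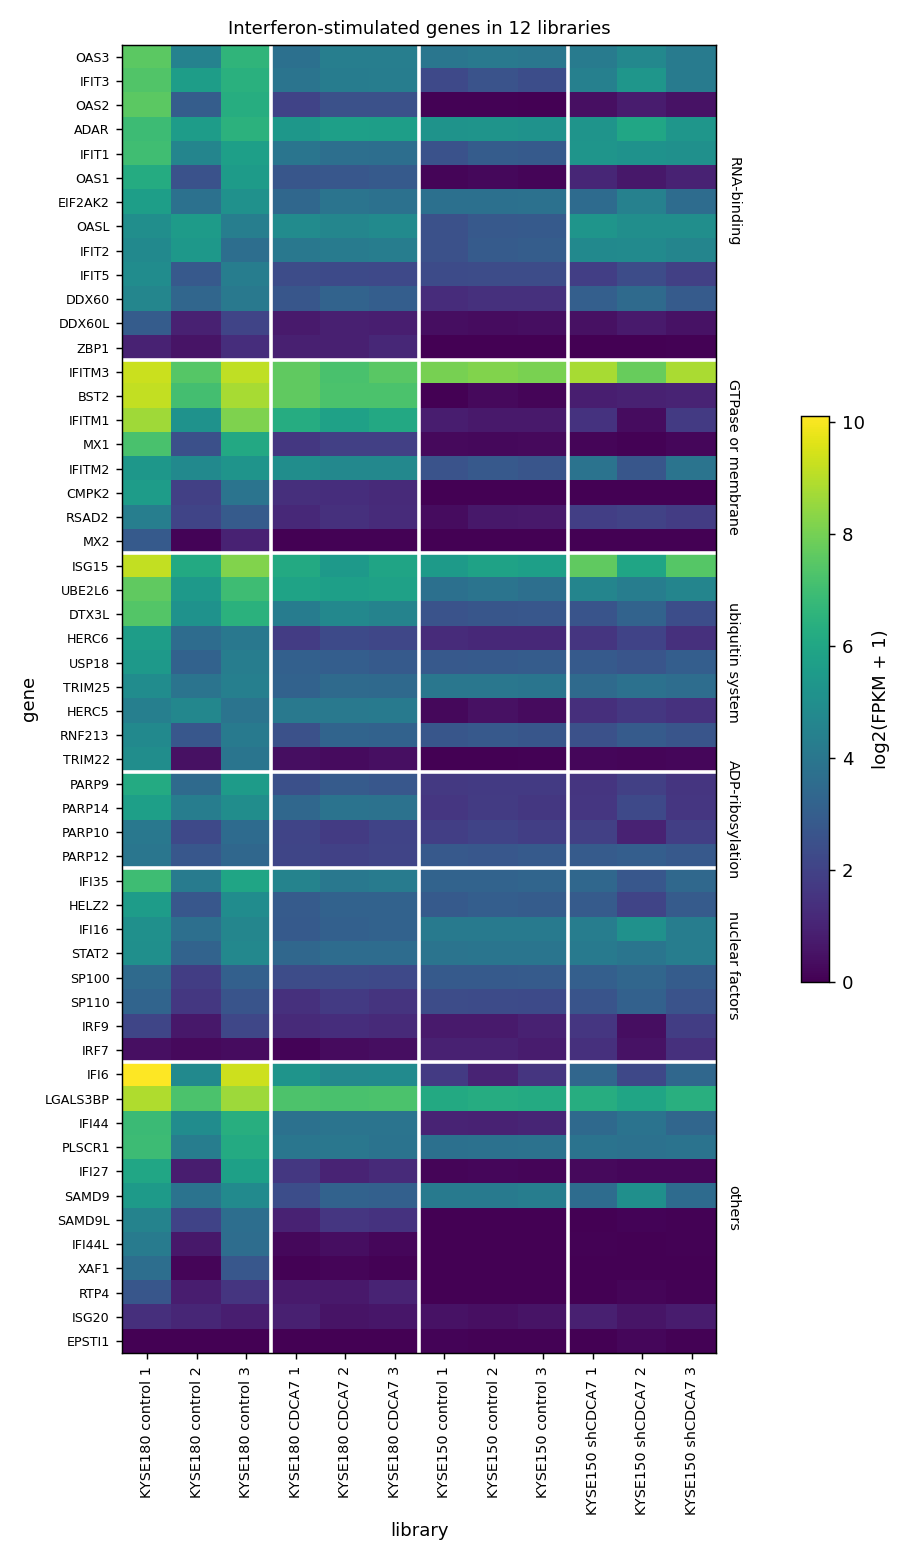
Level of each of the 54 interferon-stimulated genes (vertical axis, grouped by role) in each of the 12 libraries (horizontal axis), as log2(FPKM + 1) in colour. KYSE180 controls 1 and 3 are the brightest columns, with 45 and 41 members at 10 FPKM or more, against 26 in control 2, 19 to 23 in the overexpressing libraries, 12 in the KYSE150 controls and 17 or 18 with shCDCA7.

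In KYSE180, 10 interferon-stimulated genes fell with CDCA7 overexpression, with the largest changes in PARP9, HERC6, IFIT3, IFI44 and IFIT1, whose mean levels were 5.29 to 7.65 times lower. Of the 54 members, 53 passed the filter on low values, EPSTI1 being the exception, and 10 of these 53 (18.9%) fell, against 4.43% of all 15944 genes tested. None rose (limma, 0 of 53, against 4.65% of all genes), also at an unadjusted p under 0.05 and with limma-voom on recovered reads. The median log2 change was -1.32 for the 53 members and -0.00 for all genes tested, and 52 of the 53 changes were negative. All 3 overexpressing libraries lay below all 3 controls in 26 members (49.1%), against 17.4% of all genes. MX2 passed the filter only through the controls, so its lower level there was built into its being tested. At an unadjusted p under 0.05, 37 of the 53 members were lower, but the share of all genes at that threshold is not given here. Each of the 10 calls was kept in 7 to 10 of 14 alternative fits, IFIT3 and HERC6 in 10 and PARP9, PARP14, SAMD9 and TRIM25 in 7.

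Among the genes that bind viral RNA, 2 of 13 tested fell and the median change was -1.19. IFIT1, which holds viral RNA that lacks the host cap methylation, lies at chr10:89392546-89406486 (GRCh38, GENCODE 29) beside IFIT2, IFIT3 and IFIT5. It measured 126, 23.6 and 50.7 FPKM in the KYSE180 controls (66.9 ± 53.3, SD, n = 3), against 14.4, 11.8 and 11.7 FPKM with overexpression (12.6 ± 1.56, SD, n = 3). Every overexpressing library lay below every control, control 2 being the nearest, and the log2 change was -2.00 (SE 0.50, adjusted p = 0.048, limma). IFIT3, which binds and stabilizes IFIT1, measured 166, 48.1 and 85.3 FPKM in the controls, against 13.8, 17.9 and 18.6 FPKM with overexpression. The lowest control, control 2, lay well above the highest overexpressing library, and the log2 change was -2.34 (SE 0.39, adjusted p = 0.021, limma). IFIT2 broke from its neighbours, at 26.6, 40.9 and 11.7 FPKM in the controls, against 15.6, 17.4 and 18.5 FPKM with overexpression. Its groups overlapped, and its highest library was control 2. The synthetases that make 2-5A, the messenger that activates RNase L, showed wide control values. OAS1 stood at 73.1, 4.82 and 45.3 FPKM in the controls, against 5.53, 5.65 and 6.35 FPKM with overexpression, a log2 change of -1.99 (SE 0.81, adjusted p = 0.15, limma) that did not pass the test. OASL, the family member without synthetase activity, stood at 31.3, 45.8 and 19.2 FPKM against 28.3, 23.9 and 27.5 FPKM, with overlapping groups and a log2 change of -0.18 (SE 0.27, adjusted p = 0.69, limma). EIF2AK2 (PKR), the kinase that stops translation on double-stranded RNA, and ADAR, which edits such RNA, had log2 changes of -1.19 (SE 0.43, adjusted p = 0.11) and -0.78 (SE 0.32, adjusted p = 0.15), neither past the test. ZBP1, a sensor of left-handed double-stranded nucleic acid, had the 1 positive change of the 53, 0.02 (SE 0.19, adjusted p = 0.95, limma).

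No membrane gene passed the test, 0 of 8, although their median log2 change was -1.27. MX1, a dynamin-like GTPase that traps viral capsids, measured 148, 4.58 and 68.4 FPKM in the controls (73.7 ± 71.9, SD, n = 3), against 2.15, 2.75 and 2.81 FPKM with overexpression (2.57 ± 0.364, SD, n = 3). All 3 controls lay above all 3 overexpressing libraries, and its log2 change of -3.44 was the most negative of all 15944 genes tested. Control 2 nevertheless lay far below the other controls, and the change did not pass the test (SE 1.03, adjusted p = 0.073, limma). RSAD2 (viperin), which makes a chain-terminating nucleotide, followed the same order, at 19.1, 3.20 and 6.48 FPKM against 1.24, 1.67 and 1.38 FPKM. The groups did not overlap, and the log2 change was -1.82 (SE 0.49, adjusted p = 0.055, limma). The surface and endosomal proteins were less separated. BST2 stood at 588, 134 and 442 FPKM in the controls, against 197, 151 and 152 FPKM with overexpression, so that control 2 lay below all 3 overexpressing libraries (log2 change -0.98, SE 0.49, adjusted p = 0.22, limma). IFITM1 did likewise, at 411, 34.2 and 281 FPKM against 76.7, 53.5 and 67.5 FPKM.

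Of the 4 PARP genes, which transfer ADP-ribose to proteins or recognise it, 3 fell, PARP9, PARP12 and PARP14. PARP9, at chr3:122527924-122564577, measured 71.3, 10.2 and 46.3 FPKM in the controls, against 4.49, 6.47 and 5.76 FPKM with overexpression. The lowest control still lay above the highest overexpressing library, and the log2 change was -2.37 (SE 0.60, adjusted p = 0.049, limma). PARP12 measured 14.6, 5.74 and 9.37 FPKM against 3.36, 2.86 and 3.26 FPKM (log2 change -1.31, SE 0.28, adjusted p = 0.033, limma). PARP14, whose product acts with STAT6, measured 51.6, 18.7 and 29.7 FPKM against 9.52, 13.4 and 13.2 FPKM (log2 change -1.30, SE 0.33, adjusted p = 0.048, limma). The ubiquitin ligase DTX3L is the binding partner of PARP9 and shares its start region on the opposite strand, with 217 bases of overlapping exon. The sources used here do not state whether counting used strand, so reads there cannot be told apart. Overlap was larger in other members, 8 of which had over 10% of their exon bases overlapped by another gene. The largest shares were 48.4% in IRF9, 38.3% in XAF1 and 32.5% in IFITM1, so the levels of those 8 are less certain. DTX3L went the same way in value, 167, 35.0 and 86.9 FPKM against 17.9, 25.4 and 21.8 FPKM, but was not called.

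Of 9 ubiquitin genes 2 fell, HERC6 and TRIM25. HERC6, a HECT-type ligase next to HERC5 on chromosome 4, measured 48.2, 11.1 and 15.6 FPKM in the controls, against 2.51, 3.85 and 3.43 FPKM with overexpression. These groups did not overlap, and the log2 change was -2.34 (SE 0.46, adjusted p = 0.029, limma). TRIM25, the ligase that helps activate the RNA sensor RIG-I, measured 29.3, 13.8 and 19.7 FPKM against 8.14, 10.2 and 9.85 FPKM (log2 change -1.02, SE 0.24, adjusted p = 0.043, limma). ISG15, the ubiquitin-like modifier itself, stood at 584, 68.9 and 294 FPKM against 70.1, 42.9 and 58.6 FPKM. Control 2 lay inside the overexpressing range, and the change did not pass the test (log2 change -2.01, SE 0.67, adjusted p = 0.093, limma). HERC5, which attaches ISG15, stood at 19.8, 25.0 and 13.9 FPKM against 16.0, 16.2 and 17.0 FPKM and, like IFIT2 and OASL, was highest in control 2. USP18, which removes ISG15 and damps the receptor, and TRIM22 had log2 changes of -1.32 (SE 0.49, adjusted p = 0.12) and -2.75 (SE 0.98, adjusted p = 0.11), neither called by limma.

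Of 8 nuclear regulators 1 fell, IFI16, a sensor of DNA in the nucleus. It measured 33.1, 11.8 and 24.3 FPKM in the controls, against 6.37, 7.48 and 8.03 FPKM with overexpression (log2 change -1.43, SE 0.32, adjusted p = 0.037, limma). The transcription factors that carry the signal did not pass in limma's test: the log2 change was -0.82 for STAT2 (SE 0.41, adjusted p = 0.22), -0.40 for IRF9 (SE 0.36, adjusted p = 0.49) and -0.08 for IRF7 (SE 0.09, adjusted p = 0.59). In the mixed group 2 of 11 fell, IFI44 and SAMD9, and its median of -2.06 was the lowest of the 6 roles. IFI44, at chr1:78649796-78664078, measured 117, 28.9 and 80.9 FPKM in the controls (75.6 ± 44.2, SD, n = 3), against 12.8, 13.8 and 13.9 FPKM with overexpression (13.5 ± 0.630, SD, n = 3). The overexpressing libraries were tightly grouped below the lowest control, control 2, and the log2 change was -2.19 (SE 0.43, adjusted p = 0.030, limma). SAMD9, a translation-blocking restriction factor, measured 44.1, 13.5 and 27.3 FPKM against 4.27, 8.17 and 7.60 FPKM (log2 change -1.82, SE 0.40, adjusted p = 0.035, limma). IFI6, which protects membranes of the endoplasmic reticulum from flaviviruses, was the most abundant member in control 1, at 1107, 26.6 and 645 FPKM in the controls, against 36.8, 26.0 and 28.0 FPKM with overexpression, and control 2 lay inside the overexpressing range. IFI27 was at 62.9, 0.740 and 52.1 FPKM against 2.10, 0.996 and 1.28 FPKM, control 2 being the lowest of all 6 libraries (log2 change -2.90, SE 1.22, adjusted p = 0.16, limma).

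Members without a call in KYSE180 mostly had high values in controls 1 and 3 and a low one in control 2. OAS2, the middle-sized synthetase, stood at 187, 6.98 and 78.1 FPKM in the controls, against 3.15, 4.64 and 4.64 FPKM with overexpression. OAS3 stood at 191, 21.6 and 98.1 FPKM against 12.1, 18.8 and 19.1 FPKM, and in both genes control 2 lay just above the overexpressing libraries. CMPK2, a mitochondrial nucleotide kinase, stood at 47.3, 2.78 and 14.0 FPKM against 1.58, 1.49 and 1.31 FPKM, without overlap. XAF1, a pro-apoptotic factor, stood at 11.7, 0.0976 and 5.77 FPKM against 0.0467, 0.101 and 0.0492 FPKM, so that control 2 lay among the overexpressing libraries. LGALS3BP, a secreted glycoprotein, did likewise at 476, 150.2 and 399 FPKM against 154, 145 and 153 FPKM. PLSCR1, a phospholipid-binding protein of the plasma membrane, stood at 121, 18.4 and 72.1 FPKM against 14.5, 14.9 and 13.4 FPKM, with control 2 above them. HELZ2, a nuclear helicase, stood at 46.8, 5.63 and 29.5 FPKM against 6.43, 7.99 and 7.97 FPKM, with control 2 below them.

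The size of the KYSE180 difference depended on which control was looked at. Among the 53 tested members, control 1 was the highest control in 48, control 2 the lowest in 49, and the order 1, 3, 2 held in 47. The members took 2.21%, 0.464% and 1.41% of all reads in controls 1, 2 and 3, and 0.328% to 0.375% in the overexpressing libraries. Control 1 lay above all 3 overexpressing libraries in 52 members and control 3 in 48, but control 2 lay above them in 30, among them in 13 and below them in 10. The median SD of log2(FPKM + 1) among the controls was 1.04 for members against 0.173 for all genes tested, and IFI27 had the largest SD of all genes, 2.93. Among the overexpressing libraries the corresponding medians were 0.154 and 0.126. Control 2 was also the library whose KRT14 level lay with the overexpressing cells, while its CDCA7 level lay with the other controls, and the part of this in the interferon result was not tested. The summed squamous markers were 2242, 3956 and 2133 FPKM in controls 1, 2 and 3 and 4381 to 5112 FPKM with overexpression; 0 of 9 were called by limma, and all 9 changes were positive, with a median of 0.73. The leukocyte markers summed to 6.57, 1.98 and 7.54 FPKM in the controls and 1.57 to 2.18 FPKM with overexpression, the same high and low controls as for most members. CD74, which also stands on the interferon-gamma list, made up 3.69 FPKM of that sum in control 1 and 0.254 FPKM in control 2. Of the 8 leukocyte markers, 4 had enough reads to test in KYSE180, CD74, HLA-DRA, ITGAM and CD3E. All 4 changes were negative and 0 were called by limma. LYZ was at 0 and PTPRC at 0.00587 FPKM or less in all 6 libraries. The plasmacytoid markers summed to 0.919, 0.321 and 1.78 FPKM in the controls and 0.217 to 0.254 FPKM with overexpression, mostly IL3RA, with LILRA4 at 0. The endothelial markers summed to 0.428, 0.166 and 1.31 FPKM against 0.181 to 0.259 FPKM, and the fibroblast markers to 3.32 to 5.50 FPKM against 4.76 to 5.29 FPKM. The part of these markers in the result was not tested. Without control 2, 45 of 52 members were called lower, including all 10 named above, against 7.25% of all genes. Without control 1 there were 2 calls, without control 3 there were 6, and without any 1 of the overexpressing libraries there were 0. The shares of all genes called in those fits are not given here.

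**Figure D2:**
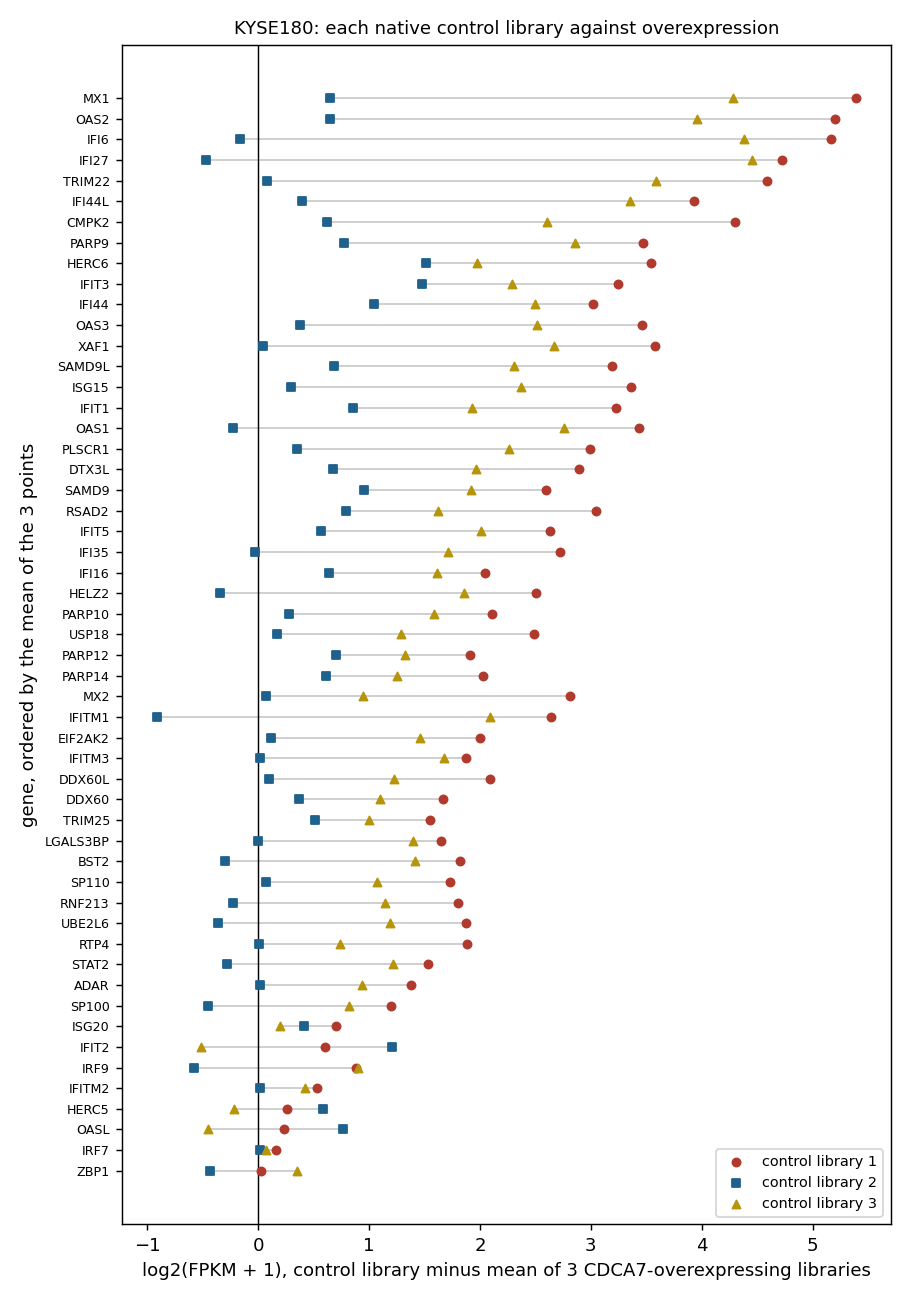
Difference between each KYSE180 control library and the mean of the 3 overexpressing libraries (log2(FPKM + 1), 1 point per control and gene) for the 53 tested interferon-stimulated genes. Controls 1 and 3 sit above 0 for nearly all genes, whereas control 2 sits nearer 0 for most and is the highest control in IFIT2, OASL and HERC5.

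In KYSE150, 13 of the 44 members tested rose with shCDCA7 (29.5%, against 10.0% of 14342 genes tested), led by IFI44, IFIT1, OASL, IFIT3 and IFIT2. None fell (limma, 0 of 44, against 9.86%), with 1 lower at an unadjusted p under 0.05 and 0 with limma-voom. The median log2 change was 0.33 for the members and 0.00 for all genes tested, 34 changes being positive and 10 negative. All 3 shCDCA7 libraries lay above all 3 controls in 21 members (47.7%), against 25.3% of all genes. The other 10 members had too few reads to test: ZBP1, CMPK2, MX2, TRIM22, EPSTI1, IFI27, IFI44L, RTP4, SAMD9L and XAF1. BST2 and OAS2 passed the filter only through the shCDCA7 libraries and so had to be higher there. Among the other 42 members 11 rose (26.2%), against 9.92% of all genes with enough reads in at least 1 library of both groups. The summed squamous markers also stood higher with shCDCA7, at 783 to 890 FPKM against 513 to 540 FPKM, with 4 of 8 tested called higher, and their part in the result was not tested. The leukocyte markers summed to 0.351 to 0.471 FPKM in the controls and 0.160 to 0.587 FPKM with shCDCA7, and the plasmacytoid markers to 0.472 to 0.610 and 0.259 to 0.613 FPKM. By role, and with BST2 and OAS2 included, 7 of 12 RNA-binding genes rose, 2 of 6 membrane genes, 2 of 8 ubiquitin genes, 2 of 6 in the mixed group, 0 of 4 PARP genes and 0 of 8 nuclear regulators.

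The RNA-binding genes that rose were IFIT1, IFIT2, IFIT3, OAS1, OAS2, OASL and DDX60. IFIT1 measured 4.78, 6.74 and 6.29 FPKM in the controls (5.94 ± 1.02, SD, n = 3), against 37.5, 34.4 and 33.1 FPKM with shCDCA7 (35.0 ± 2.25, SD, n = 3), a mean 5.90 times higher. The groups lay far apart, and the log2 change was 2.39 (SE 0.13, adjusted p = 0.0017, limma). IFIT3 measured 3.74, 5.09 and 4.30 FPKM against 20.4, 38.4 and 17.5 FPKM, with shCDCA7 library 2 well above its partners (log2 change 2.23, SE 0.29, adjusted p = 0.0062, limma). IFIT2, whose groups overlapped in KYSE180, measured 4.74, 6.54 and 6.90 FPKM against 26.6, 27.9 and 23.0 FPKM (log2 change 1.94, SE 0.15, adjusted p = 0.0021, limma). IFIT5, the fourth gene of the cluster, was at 3.96, 4.15 and 4.07 FPKM against 2.68, 4.13 and 2.73 FPKM and was not called. OASL, a partner of RIG-I, measured 4.64, 6.08 and 6.31 FPKM against 37.7, 31.0 and 31.4 FPKM, and its groups did not overlap (log2 change 2.37, SE 0.14, adjusted p = 0.0017, limma). DDX60, a helicase that helps sense viral RNA, measured 1.41, 1.68 and 1.67 FPKM against 7.45, 10.3 and 6.56 FPKM (log2 change 1.79, SE 0.17, adjusted p = 0.0029, limma). OAS1 rose from a much lower level, 0.104, 0.177 and 0.111 FPKM against 1.12, 0.561 and 0.966 FPKM (log2 change 0.73, SE 0.12, adjusted p = 0.011, limma), and the added 1 FPKM understates changes of genes this low. That call was kept in 9 of 13 alternative fits, with adjusted p between 0.000085 and 0.54, and was lost without any 1 of the controls. OAS3, the long synthetase, stood at 14.7, 15.9 and 15.1 FPKM against 17.6, 25.3 and 17.6 FPKM and was not called.

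Outside this group the largest change was that of IFI44, whose product limits virus growth by means not yet settled. It measured 1.03, 0.959 and 1.08 FPKM in the controls (1.02 ± 0.0606, SD, n = 3), against 9.90, 13.6 and 9.18 FPKM with shCDCA7 (10.9 ± 2.37, SD, n = 3), a mean 10.6 times higher. No library overlapped, and the log2 change was 2.54 (SE 0.16, adjusted p = 0.0017, limma). RSAD2 measured 0.251, 0.553 and 0.610 FPKM against 2.69, 2.93 and 2.51 FPKM (log2 change 1.34, SE 0.12, adjusted p = 0.0027, limma). HERC5 measured 0.167, 0.356 and 0.231 FPKM against 1.61, 2.10 and 1.74 FPKM (log2 change 1.17, SE 0.10, adjusted p = 0.0024, limma). BST2, nearly unread in the controls, reached 0.791, 0.914 and 1.02 FPKM, far under its KYSE180 level. UBE2L6, the enzyme that passes ISG15 to its ligases, rose from 12.3, 14.0 and 11.8 FPKM to 23.6, 18.7 and 23.6 FPKM. IFI6 measured 2.27, 1.01 and 1.97 FPKM against 9.21, 3.55 and 9.54 FPKM and was called (log2 change 1.55, SE 0.37, adjusted p = 0.031, limma), but it passed in only 6 of its 14 alternative fits, with adjusted p between 0.00023 and 0.35. ISG15 did not pass: it measured 44.8, 56.1 and 51.6 FPKM against 199.7, 60.3 and 171 FPKM, so that all 3 shCDCA7 libraries were higher but library 2 only just (log2 change 1.32, SE 0.43, adjusted p = 0.078, limma).

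Members without a call included genes of high level and genes barely transcribed. MX1, so variable in KYSE180, stood at 0.179, 0.155 and 0.180 FPKM in the KYSE150 controls, against 0.110, 0.0509 and 0.132 FPKM with shCDCA7, below the controls in all 3 libraries but not past the test (log2 change -0.09, SE 0.05, adjusted p = 0.20, limma). PARP9 stood at 2.17, 2.27 and 2.30 FPKM against 1.99, 2.74 and 1.92 FPKM, with overlapping groups (log2 change -0.02, SE 0.13, adjusted p = 0.92, limma). STAT2 had a log2 change of 0.21 (SE 0.11, adjusted p = 0.23), IRF9 of 0.48 (SE 0.36, adjusted p = 0.39), IRF7 of 0.23 (SE 0.25, adjusted p = 0.55) and USP18 of -0.03 (SE 0.12, adjusted p = 0.87), none called by limma. SAMD9 stood at 16.5, 17.0 and 18.6 FPKM against 11.0, 31.4 and 10.7 FPKM, library 2 above all controls and its partners below them. EIF2AK2 showed the same split, at 12.4, 12.3 and 12.6 FPKM against 10.5, 20.7 and 11.0 FPKM (log2 change 0.10, SE 0.24, adjusted p = 0.80, limma). IFITM3, the most abundant member, stood at 260.2, 292 and 272 FPKM against 447, 215 and 452 FPKM, library 2 lying below all controls while its partners lay above them (log2 change 0.36, SE 0.29, adjusted p = 0.42, limma).

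**Figure D3:**
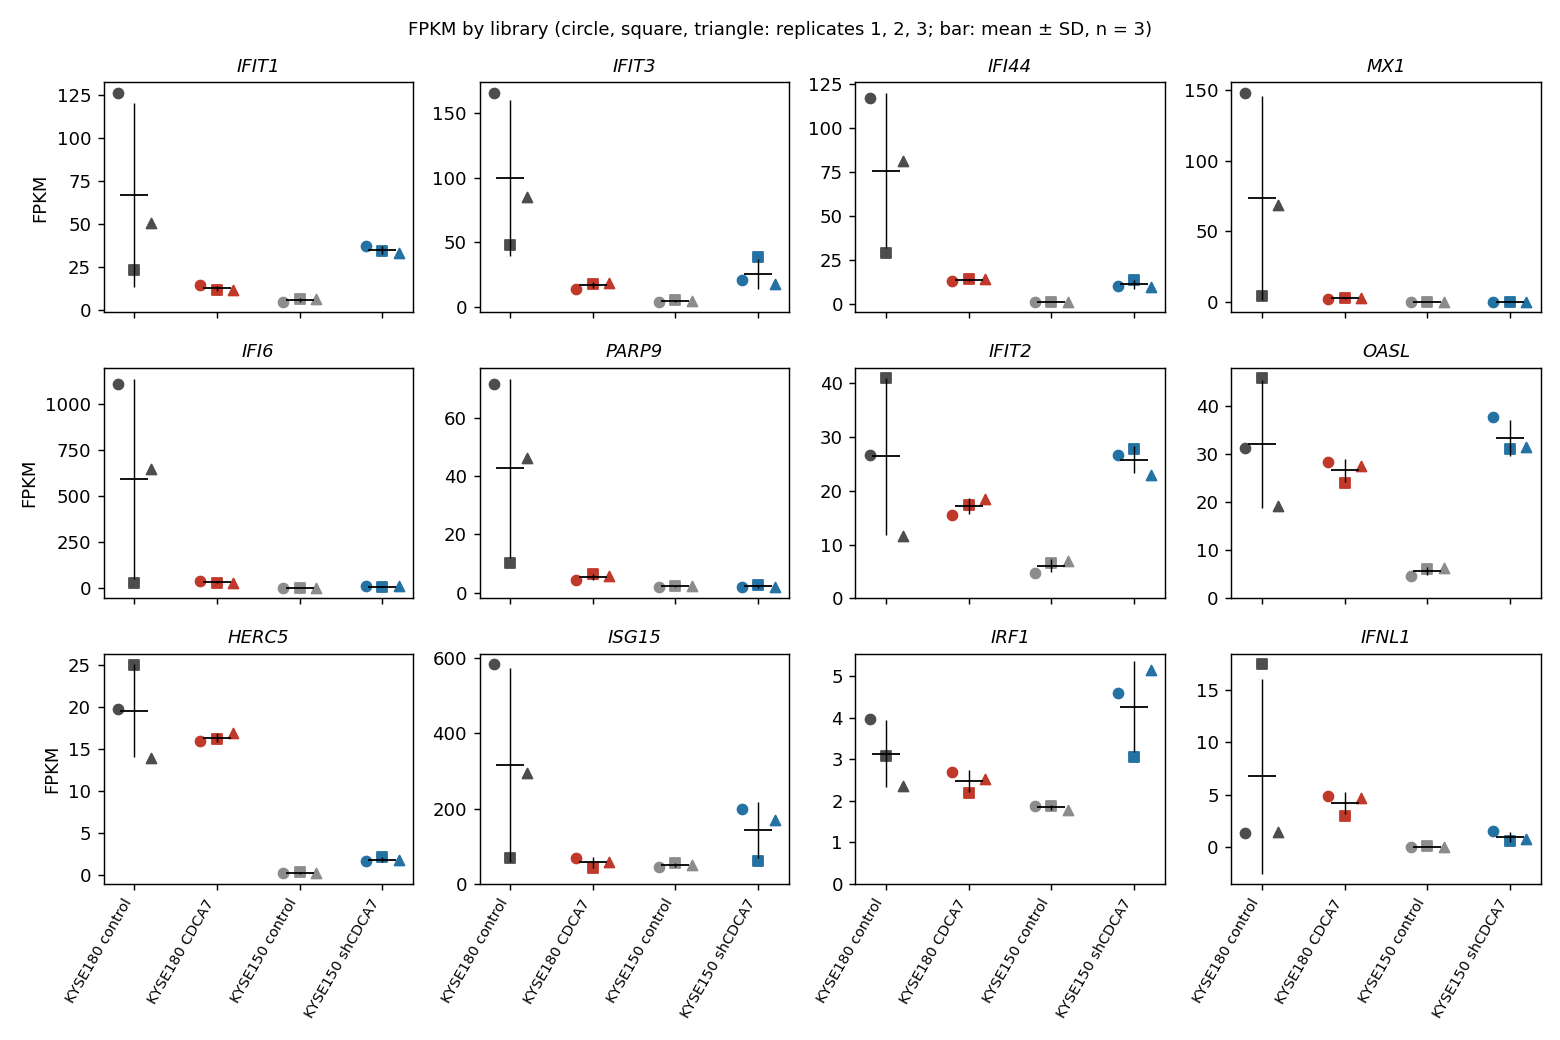
FPKM of 12 genes (vertical axis, own scale in each panel) in the 4 groups (horizontal axis), with 1 point per library and the mean ± SD of 3 libraries. IFIT1, IFIT3 and IFI44 are lower with overexpression in KYSE180 and higher with shCDCA7 in KYSE150, while OASL, IFIT2 and HERC5 overlap between the KYSE180 groups and separate in KYSE150.

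Library 2 of shCDCA7 differed from libraries 1 and 3 gene by gene. Of the 44 tested members it lay above both partners in 23, between them in 2 and below both in 19. Its difference from their mean was lower in genes whose longest annotated transcript had more GC, with a Spearman coefficient of -0.74 over the 44 members and -0.56 over all genes tested. The same difference was higher in longer genes, with coefficients of 0.55 over the 44 members and 0.30 over all genes tested. GC and gene length were not separated. These are descriptions across genes of the same 3 libraries, and genes are not independent replicates. SAMD9, at 36.0% GC, was 1.46 higher in library 2 on the log2(FPKM + 1) scale (31.4 FPKM against 11.0 and 10.7), and ISG15, at 63.4% GC, had a difference of -1.60. What the high mitochondrial share of that library had to do with this was not tested. Without library 2, 24 of 43 members were called higher, against 29.5% of all genes. They included 11 of the 13, while BST2 and OAS2 no longer passed the filter and were not tested. IFI27 entered the test in that fit. In it 4 members were called lower, EIF2AK2, IFIT5, SAMD9 and TRIM25, and the share of all genes called lower is not given here. The count of members called higher was 9 without any 1 control and 10 without shCDCA7 library 1 or 3, also without shares of all genes.

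**Figure D4:**
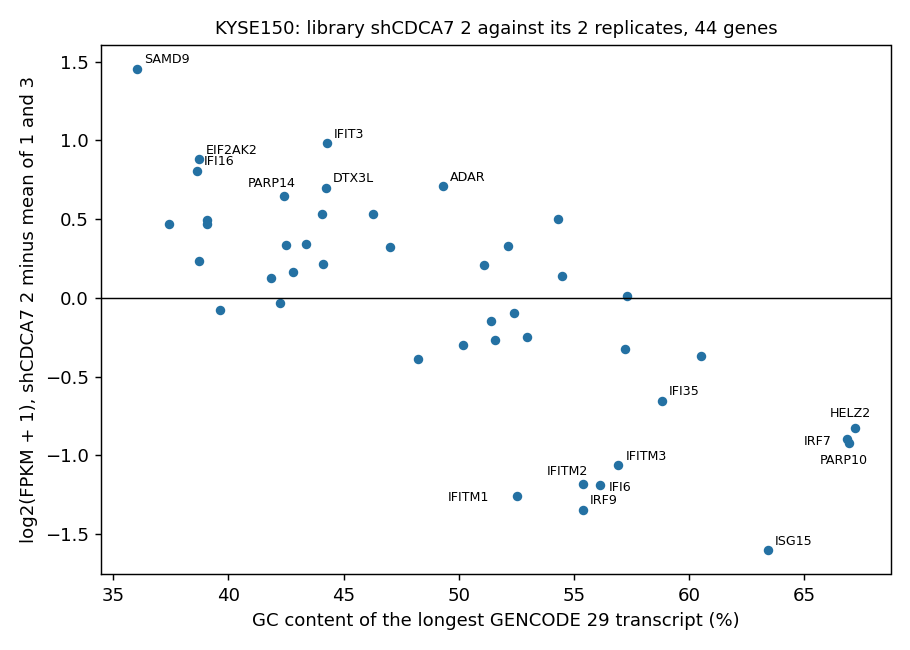
Difference between shCDCA7 library 2 and the mean of libraries 1 and 3 (vertical axis, log2(FPKM + 1)) against the GC content of the longest annotated transcript (horizontal axis, percent), 1 point for each of 44 interferon-stimulated genes. Points run from SAMD9, 1.46 at 36.0% GC, down to ISG15, -1.60 at 63.4% GC.

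IFI44, IFIT1 and IFIT3 passed the test in both lines, falling with overexpression and rising with shCDCA7. They are 30% of the 10 genes called in KYSE180, near the 29.5% of all 44 members tested in KYSE150 that rose. They are 23.1% of the 13 called in KYSE150, against 18.9% of all 53 members tested in KYSE180 that fell. The comparisons share no library, but the overlap is near the share of members called in each line. Of 44 members tested in both lines, 34 had a negative change in KYSE180 and a positive one in KYSE150, and 10 had a negative change in both. All 44 were negative in KYSE180, so these counts only restate the 34 positive and 10 negative changes in KYSE150. Over all genes tested, 8069 of 15944 changes were negative in KYSE180 and 7206 of 14342 were positive in KYSE150. The test of the difference itself, overexpression change minus shCDCA7 change over all 12 libraries, called 11 of 53 members lower (20.8%, against 2.70% of 17088 genes tested) and none higher (limma, 0 of 53, against 2.87%), with 0 higher also at an unadjusted p under 0.05 and with limma-voom. The median difference was -1.67 for the members and -0.01 for all genes tested. IFI44 had the most negative difference of all genes tested, -4.73 (adjusted p = 0.0014, limma), followed among the members by IFIT3 and IFIT1. Of the 11, 8 were called higher in KYSE150 and 6 were called lower in KYSE180. OASL passed the test of the difference (-2.55, adjusted p = 0.003, limma), with a change near 0 in KYSE180 and a rise in KYSE150. PARP9, which fell in KYSE180, did not pass it (-2.35, SE 0.71, adjusted p = 0.080, limma). Overexpression and knockdown were made in different lines, so the direction of the CDCA7 change and the line cannot be told apart.

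**Figure D5:**
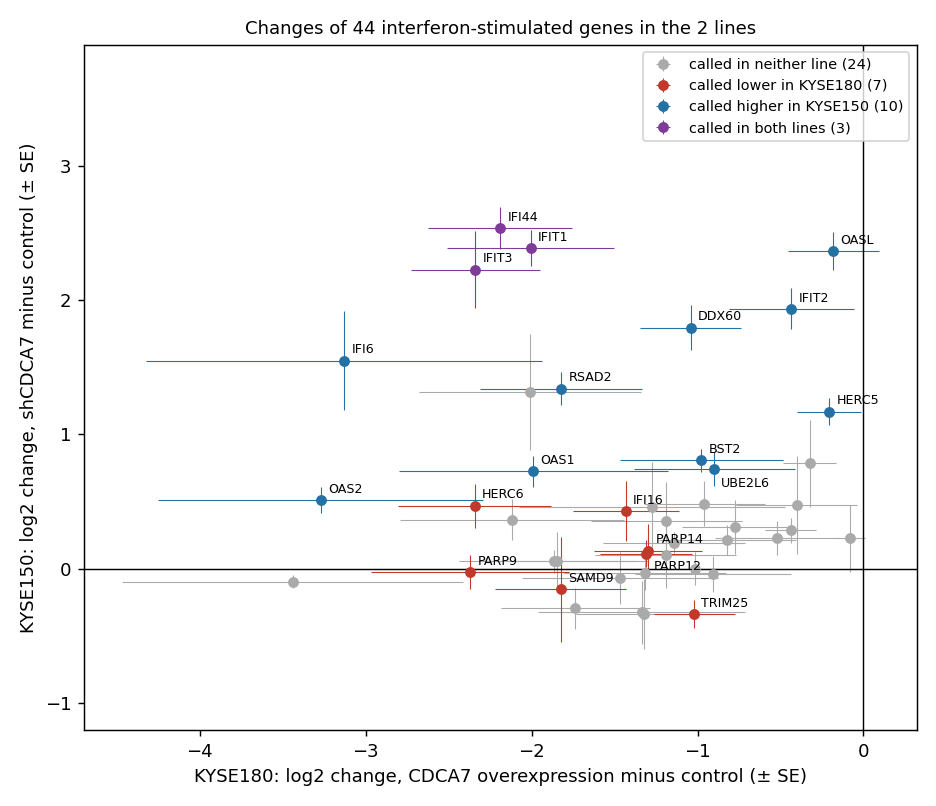
Log2(FPKM + 1) change with CDCA7 overexpression in KYSE180 (horizontal axis) against the change with shCDCA7 in KYSE150 (vertical axis) for 44 interferon-stimulated genes, with bars of 1 SE and colour by call. 24 genes were called in neither line, 7 lower in KYSE180 only, 10 higher in KYSE150 only and 3 in both, IFI44, IFIT1 and IFIT3, which lie at the upper left.

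The response element letters of the promoter windows did not sort the calls sharply. They were present in 7 of the 10 genes that fell in KYSE180 and had a window, against 20 of 33 not called. In KYSE150 they were present in 8 of 10 genes that rose and 16 of 27 not called. The median KYSE180 change was -1.82 for the 27 members with the letters and -1.18 for the 16 without. In KYSE150 the medians were 0.32 and 0.31. IFI16 fell in KYSE180 without a match in the windows searched, and MX1, with a match in some of its windows, had the most negative change there.

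Of 21 interferon genes, 14 had no read in any library. In KYSE180 4 were tested, of which 1 fell, IFNE, an epithelial type I interferon, at 0.631, 1.13 and 0.653 FPKM in the controls, against 0.0839, 0.151 and 0.405 FPKM with overexpression. It had enough reads in all 3 controls but in 1 overexpressing library, and passed the filter mainly through the controls where it is high. In KYSE150 IFNL2 was the 1 ligand with enough reads to test, which it had only with shCDCA7, and it was called higher. IFNL1, an interferon lambda, measured 1.36, 17.5 and 1.42 FPKM in the KYSE180 controls, against 4.91, 2.99 and 4.69 FPKM with overexpression. Its highest library was control 2, the control with the lowest level of most stimulated genes, and the groups overlapped. IFNB1, interferon beta, was at 0.678, 2.07 and 0.295 FPKM in the controls, against 0.432, 0 and 0.0632 FPKM with overexpression, again highest in control 2. In the KYSE150 controls IFNL1 was at 0, 0.0600 and 0 FPKM and it reached 1.55, 0.597 and 0.730 FPKM with shCDCA7. IFNL2 and IFNL3, near-identical copies whose reads cannot be told apart with certainty, stood at 0 to 0.130 FPKM in the KYSE150 controls, against 0.474 to 1.72 FPKM with shCDCA7. IFNLR1, the private chain of the lambda receptor, measured 5.60, 5.58 and 4.37 FPKM in the KYSE180 controls but had no read in the KYSE150 controls. IFNB1 had no read in any KYSE150 library.

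Of 19 genes for receptors and signalling, 18 were tested in KYSE180, of which 1 rose (SOCS3, a feedback inhibitor of cytokine receptors) and 0 fell, near the 4.65% of all genes called higher, with a median change of 0.03. In KYSE150 16 were tested, of which 3 rose (STAT3, IRF1 and IFNGR1) and 1 fell (IRF3), against 10.0% and 9.86% of all genes, with a median of 0.28. IRF1, an early target of interferon gamma, measured 1.87, 1.89 and 1.77 FPKM against 4.60, 3.05 and 5.16 FPKM in KYSE150 (log2 change 0.87, SE 0.17, adjusted p = 0.018, limma), a call kept in 6 of 14 alternative fits with adjusted p between 0.000067 and 0.086. The type I receptor chains and the kinases JAK1 and TYK2 did not pass in either line. In KYSE180 the log2 changes were -0.20 for IFNAR1, 0.04 for IFNAR2, 0.16 for JAK1 and -0.07 for TYK2. In KYSE150 they were -0.48, -0.00, 0.39 and -0.02 in the same order. IFNAR1 in KYSE150 was called lower in 4 of 14 alternative fits.

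Of 19 genes that answer mainly to interferon gamma, 15 were tested in KYSE180 and 1 fell (WARS, a tryptophan-tRNA ligase), near the 4.43% of all genes called lower, with 0 higher and a median change of -0.53. In KYSE150, 9 were tested and 3 rose, GBP1, GBP2 and IRF1, against 10.0% of all genes, with 0 lower and a median of 0.32. GBP1 and GBP2 passed the filter only through the shCDCA7 libraries and so had to be higher there, which leaves IRF1. GBP1, a GTPase that coats intracellular pathogens, measured 14.8, 3.01 and 9.58 FPKM in the KYSE180 controls, the same order of controls as most members, and 4.41, 4.44 and 4.29 FPKM with overexpression. CXCL10, a chemokine that draws T cells, was an exception to that order, at 21.5, 19.5 and 3.54 FPKM in the controls, against 3.05, 2.80 and 4.48 FPKM with overexpression.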

How the data were processed

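The values are FPKM per gene and library, deposited by the authors as 1 table, which also holds gene lengths and positions. Per the submitters' processing notes, HISAT2 2.0.5 and DESeq2 1.20.0 were used with the build mm10, a mouse build; every gene ID and position in the table matched the human GENCODE 29 annotation on GRCh38. The counting tool and the use of strand are not given in the sources used here. FPKM times gene length gave whole reads (tolerance 0.01), and the deposited FPKM imply library sizes of 1.37e+07 (shCDCA7 library 2) to 2.14e+07 reads that differ from the read totals. Genes with 10 reads per median-sized library in 3 libraries and 15 reads in all were tested on log2(FPKM + 1) with limma 3.58.1 (trend, two-sided, R 4.3.3), Benjamini-Hochberg adjusted over all tested genes, with a threshold of 0.05. Log2 changes are on that scale, which understates changes of low genes. Statements of times higher or lower are ratios of mean FPKM. Within-line comparisons used 6 libraries, the others 12. The test recovered known changes in simulated data in a check. The simulated libraries had the same small spread in every group, unlike the members in the KYSE180 controls, so the check does not cover that case. Log2 changes are given for up to 10 called members per line and direction, largest first, and for set pathway genes; SOCS3, STAT3, IFNGR1, IRF3, IFNE, IFNL2, WARS, GBP1, GBP2 and CXCL10 were picked after their values were seen. The members and lists were chosen with earlier results of these data known. Alternatives changed the added value, filter, scaling, test, samples fitted and threshold, and left out each library. Some genes of the lists are not reported here.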

Additional observations from a re-analysis of the deposited data

Results flagged for a closer look

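The difference between the lines, the log2 change with overexpression in KYSE180 minus that with shCDCA7 in KYSE150, was tested over all 12 libraries, and 11 members passed limma's test with Benjamini-Hochberg adjustment. Among the RNA-binding genes it was -4.39 for IFIT1 (adjusted p = 0.0032), -2.37 for IFIT2 (adjusted p = 0.017), -4.56 for IFIT3 (adjusted p = 0.0016), -2.55 for OASL (adjusted p = 0.003) and -2.84 for DDX60 (adjusted p = 0.0032). IFI44 had -4.73 (adjusted p = 0.0014), and RSAD2, the membrane-bound viperin, had -3.16 (adjusted p = 0.013). The ubiquitin ligases HERC5 and HERC6 had -1.38 (adjusted p = 0.012) and -2.81 (adjusted p = 0.019). The DNA sensor IFI16 had -1.86 (adjusted p = 0.033) and PARP12 had -1.42 (adjusted p = 0.03).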

How the results depend on the processing

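Of the summary results, 178 alternative values were classed as unchanged, which for a count meant staying within a set factor of the main count. The exceptions were these. The 10 members called lower in KYSE180 became 27 with all 12 libraries in 1 fit, 19 with limma-voom on recovered reads, 0 without a filter on low values and 0 at an adjusted p under 0.01, and 0 to 45 when each library was left out. The 13 called higher in KYSE150 became 8 with all 12 libraries, and 9 to 24 with each library left out. The 0 called lower there became 2 with scaling to library totals, 1 with upper quartiles and 0 to 4 with each library left out. The KYSE150 median of 0.33 became 0.12 with library totals, which moved the median of all genes by -0.16. The 1 member lower in native KYSE180 became 0 with an FPKM minimum of 1, 0 without a filter, 0 at an adjusted p under 0.01, and 0 to 1 with each library left out. The 11 differences between lines became 5 at an adjusted p under 0.01 and 7 (without KYSE150 control 1) to 47 (without KYSE180 control 2) with each library left out.

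Some small changes of named genes turned sign. OASL in KYSE180 ranged from -0.50 to 0.11 over its alternatives and turned positive without control 2. ZBP1 in KYSE180 was -0.0394 with library totals and -0.000932 with upper quartiles, and -0.19 (without control 2) to 0.21 (without control 3) with each library left out. Leaving out each library gave -0.14 to 0.0434 for PARP9 in KYSE150, -0.11 to 0.0563 for USP18 in KYSE150 and -0.19 to 0.26 for EIF2AK2 in KYSE150. It gave -0.0647 to 0.0499 for IFNAR2 in KYSE150 and -0.0774 to 0.0776 for TYK2 in KYSE150. With library totals STAT2 in KYSE150 was -0.0337 and EIF2AK2 in KYSE150 was -0.15. The cause was not tested.

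Replicate numbers are shared between groups, but same-numbered libraries did not deviate together (correlations of -0.076, -0.07 and 0.066 in KYSE180 and 0.015, -0.074 and -0.07 in KYSE150). With a replicate block, 8 members were lower in KYSE180, 12 higher in KYSE150, 45 higher in native KYSE180 and 12 in the difference. Precision is limited by 3 libraries per group and, for genes under about 1 FPKM, by few reads.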
